A study of Mus musculus with 15 samples.

Results

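Bulk gene expression of forebrain microglia on day 6 after a transient stroke was set against that of microglia from sham-operated mice. The libraries were chosen by their labels, wild-type day 6 and wild-type sham, which are 2 of the 15 samples of the study, and every gene of the table was compared. Microglia are the resident macrophages of the brain. In the healthy brain they keep a surveying state marked by receptors such as P2ry12 and Tmem119. After an infarct they divide, take up dying cells and myelin, and make growth factors such as Igf1.

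The day 6 library came from male C57BL/6J mice in which a silicone-coated filament blocked the middle cerebral artery for 60 minutes before reperfusion, at 8 to 24 weeks of age. The sham library came from wild-type mice that had the surgery with no occlusion, and no age is recorded here for them. Forebrain cells with intermediate CD45 and CD11b were sorted, and an antibody to CD31, the endothelial protein encoded by Pecam1, was in the stain. The sources used here do not give the role of that antibody in the gate or the number of mice behind a library. Each group had 1 library, so no difference below was set against a spread between mice, and no p-value was computed. Other day 6 libraries are given beside the results as levels. They were 1 EGFP+ and 1 EGFP- library of Igf1-Egfp transgenic mice, in which EGFP reports Igf1, and 3 libraries of Yy1flox/flox mice without Cre. Their mice too had 60 minutes of occlusion, at 8 to 24 weeks of age. The floxed libraries stood in another table and were scaled apart.

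Read counts per gene totalled 42.5 M (M, 1e6 counts) in the day 6 library and 52.6 M in sham, with 17007 and 16009 of 24421 genes at 1 count or more. Levels are CPM, counts per 1e+06 counts of the library, after TMM scaling. Fold ratios carry 95% exact conditional binomial intervals, which cover counting error only. A log2 ratio is that of CPM + 1, day 6 over sham. A gene was called at a log2 ratio of 2 or more, or -2 or less, with at least 20 CPM in either library. At that level 7092 genes were considered, and their median log2 ratio was -0.09. Of these, 443 (6.25%) were higher on day 6 and 6 (0.0846%) were lower. Of the 443 genes, 395 were under 20 CPM in sham and met the minimum only through day 6, so a count of called members in the lists below is a description, and medians are given over all members. A member under 20 CPM in both libraries could not be called, so counts over a whole list do not compare directly with the 6.25%. At a log2 ratio of 1 the counts were 751 higher (10.6%) and 206 lower (2.9%). Large differences were thus nearly all towards day 6, while 41.8% of the genes considered had a log2 ratio above 0 and 58.2% one below. With no minimum level, 952 of the 17592 genes with a count in either library (5.41%) were at a log2 ratio of 2 or more and 10 (0.0568%) at -2 or less, and 52.6% were above 0 and 47.4% below.

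**Figure D1:**
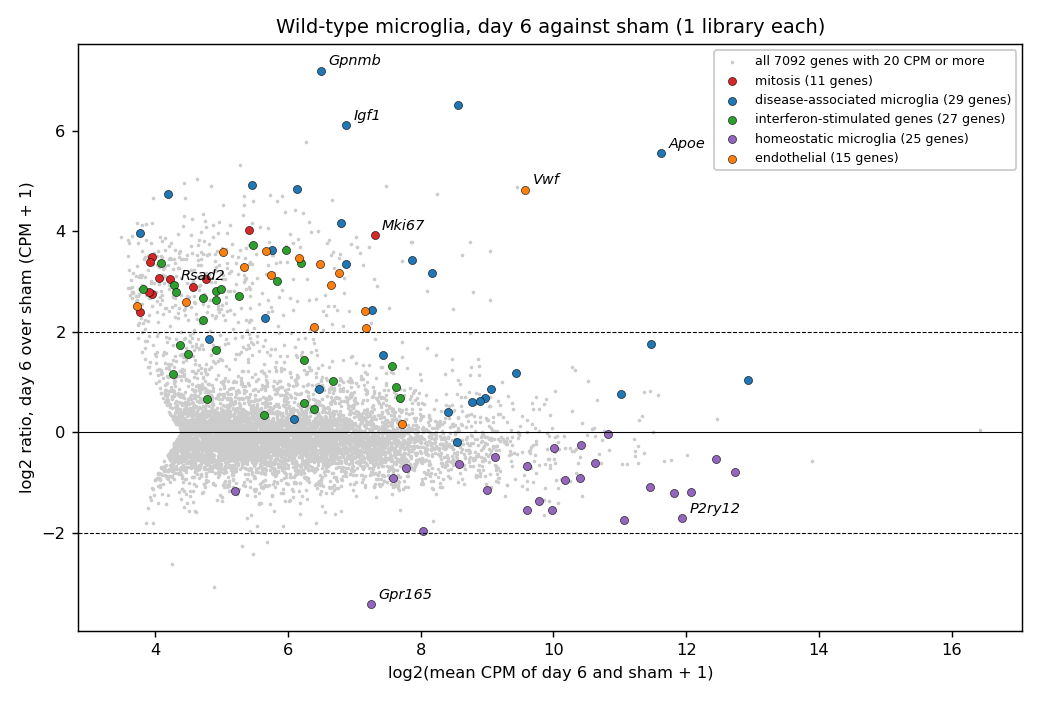
The log2 ratio of day 6 over sham (vertical axis) is plotted against the log2 mean level of both libraries (horizontal axis) for the 7092 genes considered, 1 point a gene, with 5 gene lists in colour and dashed lines at 2 and -2. Genes above 2 number 443 and genes below -2 number 6, and all 25 homeostatic genes lie below 0.

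The promoters of 2 gene groups that were higher on day 6 are shown first, because short motifs known to act in these groups could be read in them. Interferon-stimulated genes are classically driven through the interferon-stimulated response element, searched here on both strands as 2 copies of GAAA with any 2 bases between them (TTTC on the other strand). Mitotic genes are classically driven through the CCAAT box, searched as CCAAT or ATTGG, and through the CHR element, searched as TTTGAA or TTCAAA. The windows hold the 250 bases before the RefSeq start of each gene (GRCm38.p6), 5′ to 3′ on the gene's strand, with the searched motif in capitals. The 3 members of each group with the highest ratios among the called ones that held the motif were taken. Rsad2 (chr12:26456453-26456702, minus strand), Ifit3 (chr19:34583279-34583528, plus strand) and Ifit1 (chr19:34640639-34640888, plus strand) encode antiviral proteins, and capitals mark the response element.
Rsad2: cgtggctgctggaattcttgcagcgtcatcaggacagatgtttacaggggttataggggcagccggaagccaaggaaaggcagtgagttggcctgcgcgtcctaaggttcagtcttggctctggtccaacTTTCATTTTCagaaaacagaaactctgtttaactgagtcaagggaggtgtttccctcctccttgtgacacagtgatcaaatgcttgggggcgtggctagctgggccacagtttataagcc
Ifit3: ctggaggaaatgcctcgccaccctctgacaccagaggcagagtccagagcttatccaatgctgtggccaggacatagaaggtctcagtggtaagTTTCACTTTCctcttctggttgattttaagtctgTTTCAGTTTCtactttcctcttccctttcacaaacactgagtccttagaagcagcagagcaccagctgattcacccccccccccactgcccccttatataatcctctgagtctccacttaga
Ifit1: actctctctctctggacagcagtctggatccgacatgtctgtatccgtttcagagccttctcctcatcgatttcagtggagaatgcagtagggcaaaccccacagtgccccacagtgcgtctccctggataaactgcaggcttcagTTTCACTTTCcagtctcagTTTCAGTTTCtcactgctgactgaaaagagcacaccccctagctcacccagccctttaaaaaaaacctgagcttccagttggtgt

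Top2a (chr11:99024190-99024439, minus strand), the topoisomerase that untangles DNA in dividing cells, Mki67 (chr7:135716380-135716629, minus strand), the antigen Ki-67, and Aspm (chr1:139454523-139454772, plus strand), a spindle pole protein, carry CCAAT boxes, which the capitals mark.
Top2a: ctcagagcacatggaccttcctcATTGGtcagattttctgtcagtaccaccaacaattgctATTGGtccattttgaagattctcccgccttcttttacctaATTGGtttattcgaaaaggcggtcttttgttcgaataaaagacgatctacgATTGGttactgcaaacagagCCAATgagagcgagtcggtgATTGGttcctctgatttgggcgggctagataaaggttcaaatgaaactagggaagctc
Mki67: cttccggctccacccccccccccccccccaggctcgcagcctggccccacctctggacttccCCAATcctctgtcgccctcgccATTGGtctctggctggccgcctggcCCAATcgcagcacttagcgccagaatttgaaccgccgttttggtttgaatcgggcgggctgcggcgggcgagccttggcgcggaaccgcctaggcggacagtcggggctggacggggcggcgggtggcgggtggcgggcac
Aspm: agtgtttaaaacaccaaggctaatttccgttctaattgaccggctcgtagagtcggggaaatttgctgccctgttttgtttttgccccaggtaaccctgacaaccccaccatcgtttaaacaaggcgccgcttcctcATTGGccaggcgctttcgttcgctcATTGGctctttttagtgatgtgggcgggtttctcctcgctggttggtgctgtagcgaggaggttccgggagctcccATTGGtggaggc

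The response element was in 12 of the 25 interferon-stimulated genes that matched a window (48.0%), against 936 of 27025 genes (3.46%). CCAAT was in 23 of 28 matched mitotic genes (82.1%) and in 15 of 24 matched DNA replication genes (62.5%), against 37.5% of all genes. TTTGAA was in 10 of 28 mitotic genes (35.7%) and in 3 of 24 replication genes (12.5%), against 18.3% of all genes. Among the 5515 genes considered that matched a window, the response element was in 3.06%, CCAAT in 39.7% and TTTGAA in 12.3%. CCAAT and TTTGAA matches overlapped in 0 of these mitotic or replication genes. A match is only a description of the window. Both groups are described with their levels below.

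Igf1, the growth factor that supports neurons, oligodendrocytes and new vessels, had 231 CPM on day 6 against 2.36 CPM in sham (10327 and 126 counts). The ratio was 97.7-fold, with an interval of 81.9 to 117. Igf1 lies on chromosome 10 (87858265 to 87937042, plus strand, GRCm38). In the wild-type course the levels of sham and days 1, 6, 14 and 28 were 2.36, 41.2, 231, 176 and 29.5 CPM, so that day 6 was the highest of the 5 libraries. The EGFP+ library, which was sorted on the Igf1 reporter, had 813 CPM and the EGFP- library 49.5 CPM. The 3 floxed day 6 libraries had 122, 167 and 168 CPM, a mean of 152 ± 26.0 (SD, n = 3). Each of the 6 day 6 libraries named here was therefore above the sham library.

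The receptors for Igf1 differed little. Igf1r, its main receptor, had 148 CPM on day 6 against 110 CPM in sham, and Insr, the insulin receptor, had 166 CPM against 126 CPM. Igf2r, which carries Igf2 and mannose-6-phosphate-tagged enzymes to lysosomes, had 64.6 CPM on day 6 against 4.76 CPM in sham. It was higher still on day 1, at 240.1 CPM. Among the secreted binding proteins, Igfbp7 had 194 CPM on day 6 against 6.88 CPM in sham, and Igfbp3 had 38.6 CPM against 6.00 CPM. Igfbp4 (66.7 against 18.4 CPM, log2 ratio 1.80) and Igfbp5 (15.9 against 2.51 CPM, under the 20 CPM minimum) were not called and were chosen after their values were seen. Of the 13 genes of the IGF axis, 4 were called higher (Igf1, Igfbp7, Igf2r and Igfbp3) and none lower, with a median log2 ratio of 0.94 over all 13, against 0.03 over the 17592 genes with a count in either library. All 4 were under 20 CPM in sham. With no minimum level 5 of the 13 were at a log2 ratio of 2 or more, against 5.41% of genes with a count.

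Igfbp7 was lower in the other day 6 libraries than in the wild-type one. Igfbp7 had 21.1, 33.9 and 36.8 CPM in the floxed libraries, 37.2 CPM in EGFP+ and 40.2 CPM in EGFP- cells. Those levels lie between the 194 CPM of the wild-type day 6 library and the 6.88 CPM of sham. Endothelial cells are a known source of Igfbp7 and Igfbp3, and endothelial markers were high in the wild-type day 6 library, as given below. Their part in these binding protein levels was not tested.

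Among 25 growth factor genes, 3 were called higher and none lower, and the median log2 ratio over all 25 was 0.82. Only 9 of the 25 reached 20 CPM in either library. With no minimum level 6 of the 25 were at a log2 ratio of 2 or more, against 5.41% of genes with a count. Csf1, the ligand of the microglial survival receptor Csf1r, had 259 CPM on day 6 against 47.2 CPM in sham, with 249, 282 and 273 CPM in the floxed libraries. Fgf1 had 21.7 CPM against 2.47 CPM, with 3.14 to 4.69 CPM in the floxed libraries, and the third call was Igf1. Tgfb1, which holds microglia in their homeostatic state, had 220.3 CPM on day 6 against 342 CPM in sham, and Pdgfb had 160.1 CPM against 254 CPM. Neither was called.

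**Figure D2:**
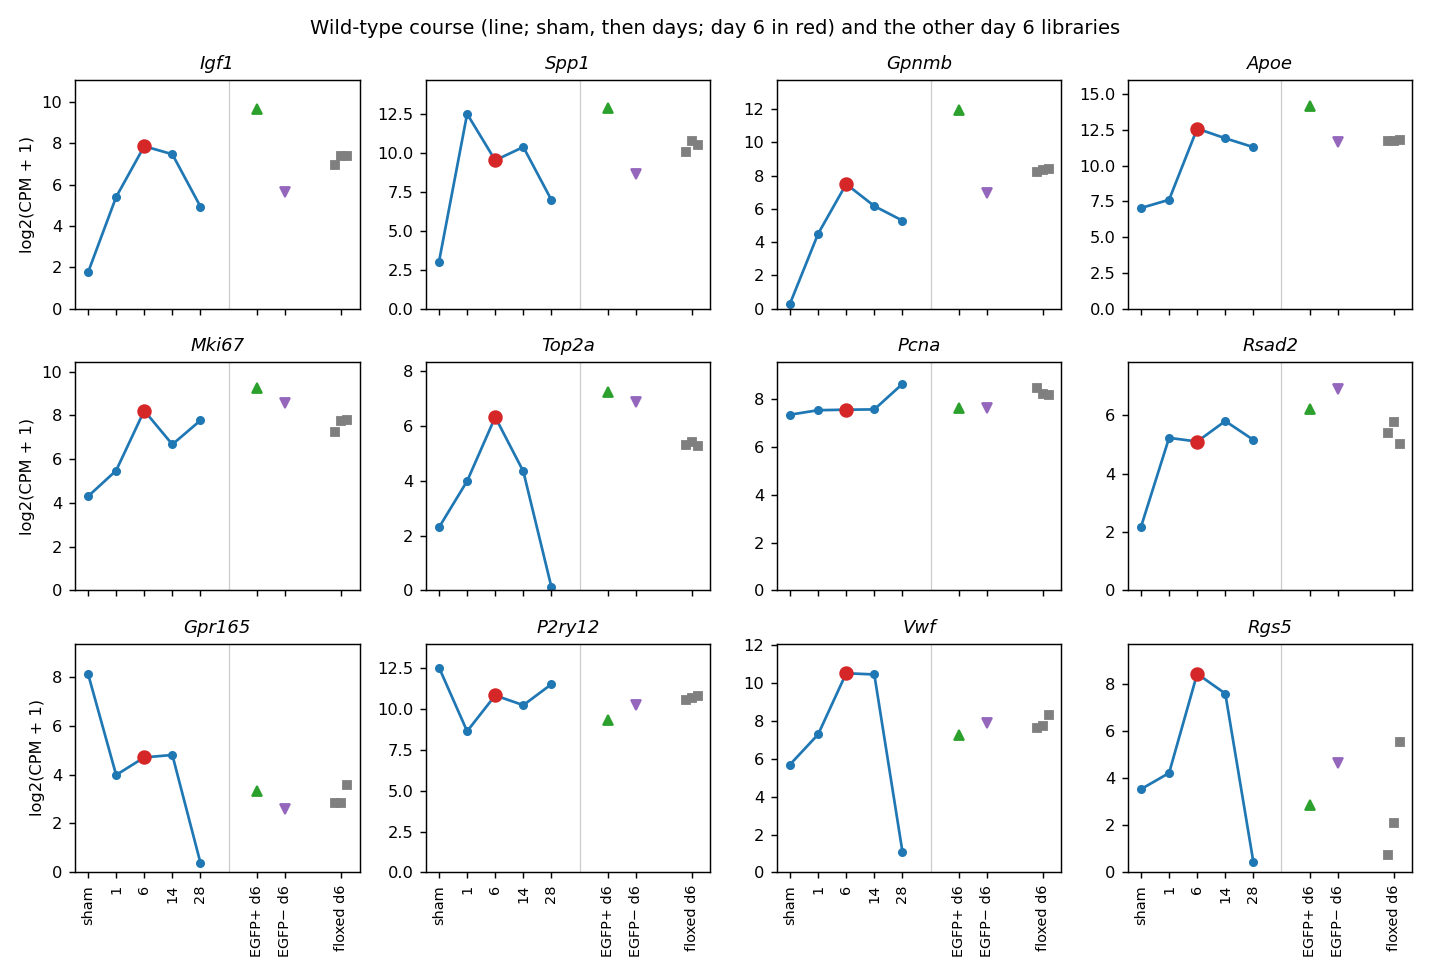
Each panel plots log2(CPM + 1) of 1 gene, with the wild-type libraries joined by a line (sham, then days 1, 6, 14 and 28, day 6 in red), then the EGFP+, EGFP- and 3 floxed libraries of day 6. Igf1, Gpnmb and Apoe peak on day 6 in the wild-type course, Pcna is nearly flat until day 14, and Vwf and Rgs5 are lower in the other day 6 libraries than in the wild-type one.

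Cell division genes divided into 2 patterns. Genes of the later cycle, from the G2 phase through mitosis, were far higher on day 6, and genes of DNA replication were only moderately so. Mki67, the proliferation antigen whose promoter is shown above, had 296 CPM on day 6 against 18.7 CPM in sham, 15.9-fold with an interval of 14.9 to 16.9. Top2a had 79.5 CPM against 3.94 CPM, 20.2-fold with an interval of 17.6 to 23.3. Aspm had 27.5 CPM against 1.54 CPM, Tpx2, a spindle assembly factor, 26.9 CPM against 1.67 CPM, and the spindle motor Kif11 28.8 CPM against 2.53 CPM. Racgap1, which acts in cytokinesis, had 32.5 CPM against 3.04 CPM.

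All 32 mitotic genes had a log2 ratio above 0, and 30 of the 32 were at 2 or more with no minimum level. Among genes with a count in either library those shares were 52.6% and 5.41%. Of the 11 mitotic genes that reached 20 CPM, all were called higher. None of them reached 20 CPM in sham, so they passed that minimum only through day 6 and that count carries no weight of its own. The median log2 ratio was 2.67 over all 32 members and 2.70 over the 31 with 5 CPM in either library. The cyclin genes Ccnb1 (14.3 against 0.187 CPM) and Ccnb2 (17.6 against 0.506 CPM) and the kinase gene Cdk1 (11.2 against 1.57 CPM), chosen after their values were seen, stayed under the 20 CPM minimum in both libraries.

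Of the 30 DNA replication genes, 28 had a log2 ratio above 0 and 6 were at 2 or more with no minimum level. Among genes with a count those shares were 52.6% and 5.41%. Rrm2, the small subunit of ribonucleotide reductase, was the 1 called (20.9 CPM on day 6 against 1.35 CPM in sham). The median log2 ratio was 1.21 over all 30. Pcna, the sliding clamp of DNA polymerase, had 187 CPM on day 6 against 162 CPM in sham, 1.16-fold with an interval of 1.12 to 1.19. The helicase genes Mcm3 (59.9 against 44.7 CPM) and Mcm6 (50.2 against 14.2 CPM, log2 ratio 1.75), chosen after their values were seen, lay between these extremes. Replication transcripts summed to 661 CPM over the list on day 6 against 384 CPM in sham, and mitotic transcripts to 894 CPM on day 6 against 74.1 CPM in sham.

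The mitotic sum was high in every day 6 library. It was 1593 CPM in EGFP+ cells, 1064 CPM in EGFP- cells and 469, 675 and 664 CPM in the floxed libraries, while the wild-type course (sham, days 1, 6, 14 and 28) gave 74.1, 154, 894, 298 and 385 CPM. The replication sum was 759 CPM in EGFP+ cells, 676 CPM in EGFP- cells and 759 CPM in each floxed library. The histone genes Hist1h3b (30.4 CPM against 1.74 CPM) and Hist1h1b (52.0 CPM against 5.70 CPM), both chosen after their values were seen, were also called higher, and histone genes were not counted as a group. In a bulk library, more dividing cells and more of these transcripts per dividing cell cannot be told apart, and dividing cells of other types were not separated from microglia.

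Among 26 regulators of the G1 phase, 1 was called higher and none lower, with a median log2 ratio of 0.21 over all 26 and 0.03 over the 22 with 5 CPM. That call was Ccnd2, encoding cyclin D2, with 37.6 CPM on day 6 against 4.91 CPM in sham. It had 3.40 CPM in EGFP+ cells, 93.6 CPM in EGFP- cells and 3.69 to 5.88 CPM in the floxed libraries, which is close to the sham value in 4 of those 5. Ccnd1, encoding cyclin D1, had 61.9 CPM against 107 CPM, and Cdkn1a, encoding the p21 inhibitor, had 28.1 CPM against 9.82 CPM (both chosen after their values were seen, neither called). Myc had 71.5 CPM against 112 CPM, and Rb1 189 CPM against 213 CPM. Of the 26, 16 were above 0, against 52.6% of genes with a count. With no minimum level 3 of the 26 were at a log2 ratio of 2 or more, against 5.41% of genes with a count. Besides Ccnd2 they were E2f8 (2.77) and E2f7 (2.16). E2f1 (1.97), Ccne1 (1.76) and E2f2 (1.52) were also higher, whereas E2f3 was lower (-0.88). All but E2f3 of these E2F and cyclin E genes were under 20 CPM in both libraries, and all were chosen after their values were seen. The G1 list as a whole thus lacked the shift of the mitotic list, though some members were higher.

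Genes of the phagocytic, disease-associated microglial state held the 2 highest log2 ratios among the genes considered, those of Gpnmb and Spp1. Gpnmb, a glycoprotein of lipid-laden phagocytes, had 179 CPM on day 6 against 0.225 CPM in sham, from 8005 counts against 12 and 795-fold with an interval of 455 to 1539. Spp1, encoding osteopontin, had 745 CPM against 7.12 CPM (105-fold, interval 94.5 to 116). Apoe, the main lipid carrier of the brain, had 6183 CPM against 130.3 CPM (47.5-fold, interval 46.3 to 48.6). Cst7, a cathepsin inhibitor, had 135 CPM against 3.77 CPM, and Ch25h, which makes 25-hydroxycholesterol, 84.4 CPM against 1.80 CPM.

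Of the 29 genes of this state, 28 had a log2 ratio above 0 and 15 were called higher, with a median of 2.27 over all 29. All 29 reached 20 CPM in either library, and 11 of the 15 were under it in sham. Of all genes considered, 6.25% were called higher and 41.8% had a log2 ratio above 0. The others called included Axl, a receptor for apoptotic cells (209.8 against 10.7 CPM), Clec7a, encoding dectin-1 (213 against 20.0 CPM), the lipase gene Lpl (426 against 38.3 CPM) and Fabp5, a fatty acid carrier (34.5 against 0.319 CPM). The exception below 0 was Trem2, the lipid receptor on which much of this state is known to depend, with 348 CPM against 399 CPM, and its adaptor gene Tyrobp had 388 CPM against 292 CPM (both chosen after their values were seen). The receptor and its adaptor thus stayed within a log2 ratio of 0.41 of sham while many genes of the state were far higher.

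These genes did not peak together over the course. In sham and on days 1, 6, 14 and 28 Gpnmb had 0.225, 21.6, 179, 70.8 and 38.2 CPM and Apoe 130.3, 195, 6183, 3862 and 2513 CPM. Spp1 was already at 5915 CPM by day 1, and then at 745 CPM (day 6) and 1349.6 CPM (day 14). Lpl was at 2001 CPM by day 1 and at 426 CPM by day 6. Day 6 was the highest time for 9 of the 29 genes. In the floxed day 6 libraries Gpnmb had 294, 319 and 329 CPM, Spp1 1067, 1789 and 1469.5 CPM and Apoe 3372, 3307 and 3565 CPM, and EGFP+ cells had 3913 CPM of Gpnmb, 7628 CPM of Spp1 and 18823 CPM of Apoe. The EGFP- library had 123 CPM of Gpnmb, 399.5 CPM of Spp1 and 3281 CPM of Apoe, all above sham.

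Among 27 genes of lipid uptake and efflux, 6 were called higher and none lower, with a median log2 ratio of 1.04 over all 27. Of the 27, 17 reached 20 CPM in either library. With no minimum level 9 of the 27 were at a log2 ratio of 2 or more, against 5.41% of genes with a count. Plin2, which coats lipid droplets, had 244 CPM on day 6 against 15.5 CPM in sham. Msr1, a scavenger receptor for modified lipoproteins, had 54.3 CPM against 2.17 CPM, and was at 755 CPM on day 1. Pltp, a phospholipid transfer protein, had 74.2 CPM against 10.5 CPM, while the floxed libraries had 9.13, 25.6 and 28.4 CPM. The exporter genes Abca1 (1967 against 1256 CPM) and Abcg1 (298 against 200.01 CPM, chosen after its values were seen) and the lipoprotein receptor gene Lrp1 (2265 against 2500 CPM) were not called. Plin3, another droplet coat gene (20.5 against 7.74 CPM, chosen after its values were seen), was not called either.

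No gene of the 36 in the lysosome list was called, although 30 had a log2 ratio above 0 and the median over all 36 was 0.53. Of genes with a count, 52.6% were above 0, and of genes considered, 10.6% were at 1 or more. The protease genes Ctsb (4397 against 1297 CPM, log2 ratio 1.76) and Ctsd (10547 against 5106 CPM, 1.05) were among the 8 members at 1 or more, as was Gla, encoding alpha-galactosidase A (72.6 against 18.5 CPM, 1.91, chosen after its values were seen). The CLEAR motif of lysosomal genes holds the E-box CACGTG, which was in 13 of 30 matched lysosome genes (43.3%) against 6.86% of all genes. Among the genes considered that matched a window, 10.9% held it.

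Homeostatic microglial genes were lower as a group. All 25 had a log2 ratio below 0, against 58.2% of genes considered. Of the 25, 12 were at -1 or less, against 2.9% of genes considered, and the median was -0.94. Against that, 1 was called, Gpr165, an orphan receptor gene, with 25.0 CPM on day 6 against 278 CPM in sham (11.1-fold lower, chromosome X, 96713441 to 96719388, plus strand). Slc2a5, the microglial fructose transporter gene, lay just outside the rule at -1.97 (105 against 416 CPM, chosen after its values were seen). P2ry12, the ADP receptor of surveying microglia, had 1839 CPM against 6022 CPM (3.27-fold lower), Tmem119 had 398 CPM against 1163 CPM, and Cx3cr1, the fractalkine receptor, had 2164 CPM against 5027 CPM.

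The whole list summed to 29457 CPM on day 6 against 57071 CPM in sham, and stood between 15438 and 26364 CPM in the EGFP and floxed day 6 libraries. Of the 25 genes, 16 had their lowest level of the course in the day 1 library and 1 in the day 6 library. P2ry12 had 6022, 401, 1839, 1215 and 2963 CPM in sham and on days 1, 6, 14 and 28. The floxed libraries had 1501, 1678 and 1796 CPM. Sparc, a matrix protein gene, stayed at 1789 CPM against 1822 CPM and Fcrls at 1248 CPM against 1479 CPM (both chosen after their values were seen). The floxed libraries had 198, 309 and 333 CPM of Fcrls. A lower share of microglial RNA in the library and less of these transcripts per cell cannot be told apart.

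Besides Gpr165, the 5 genes called lower were Tlr5, the flagellin receptor (5.25 CPM on day 6 against 51.9 CPM in sham), Trp53cor1, a p53-induced long noncoding RNA (4.33 against 31.8 CPM), Sema4b, a semaphorin (12.98 against 74.4 CPM), Cass4, a docking protein (12.8 against 64.8 CPM), and Bank1, a signalling scaffold known from B cells (17.8 against 83.8 CPM). For Tlr5 the 9.88-fold lower level rests on 235 counts against 2767. Each of the 6 stood below its sham level in every other library of the time course and in the EGFP and floxed day 6 libraries too. For Gpr165 those libraries had 9.04 CPM (EGFP+), 4.97 CPM (EGFP-) and 6.11, 6.22 and 10.9 CPM (floxed). For Sema4b they had 12.5 CPM, 8.89 CPM and 30.7, 13.7 and 5.92 CPM. The lower calls thus rest on 1 sham library that was the highest of all libraries named here for each gene.

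Interferon-stimulated genes were higher on day 6, including those whose promoters are shown above. All 35 had a log2 ratio above 0, against 52.6% of genes with a count, and the median was 2.23 over all 35. With no minimum level 19 of the 35 were at a log2 ratio of 2 or more, against 5.41% of genes with a count. Of the 35 genes, 14 were called higher, each of which was under 20 CPM in sham and met the minimum only through day 6. Oasl2 had 81.7 CPM on day 6 against 5.21 CPM in sham. Ifitm3, which blocks viral entry, had 115 CPM against 8.40 CPM, Oas2 30.0 CPM against 1.99 CPM, Ifi204 133 CPM against 12.03 CPM and Ifit2 101 CPM against 11.6 CPM. Rsad2, encoding viperin, had 33.4 CPM against 3.52 CPM. Ifit3 (55.2 against 6.80 CPM), Ifit1 (33.8 against 4.01 CPM) and the transcription factor gene Irf7 (44.6 against 6.11 CPM) were chosen after their values were seen. Parp14 had 258 CPM against 137 CPM, which was not called.

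Day 6 was the highest time for 3 of the 35. The list summed to 851, 1347, 2378, 3265 and 3221 CPM in sham and on days 1, 6, 14 and 28. The EGFP+ library had 1849 CPM, the EGFP- library 3690 CPM and the floxed libraries 2575, 2863 and 2507 CPM, so that all day 6 libraries stood above sham.

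Of 28 cytokine and chemokine genes, 15 reached 20 CPM in either library. With no minimum level 7 of the 28 were at a log2 ratio of 2 or more, against 5.41% of genes with a count. Among the 15, 3 were called higher and none lower, with a median log2 ratio of 0.85 over all 28. They were Csf1, Cxcl10 (65.6 CPM on day 6 against 9.15 CPM in sham), a chemokine that interferon induces, and Ptgs2, the cyclooxygenase-2 gene (165 against 9.30 CPM). Ptgs2 had 19.1, 37.1 and 54.1 CPM in the floxed libraries and 28.2 CPM in EGFP+ cells. Ccl3 (793 against 478 CPM) and Ccl4 (375 against 333 CPM) were not called, nor was Il1b (20.1 against 4.78 CPM, log2 ratio 1.87). Its level was 83.7 CPM at day 1 and 232 CPM at day 28. The list summed to 1528, 6276, 2549, 3288 and 6014 CPM in sham and on days 1, 6, 14 and 28, so that day 6 was the lowest of the 4 times after stroke.

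Of 19 antigen presentation genes, 2 were called higher, both under 20 CPM in sham, and the median log2 ratio was 0.72 over all 19. With no minimum level 3 of the 19 were at a log2 ratio of 2 or more, against 5.41% of genes with a count. H2-Aa, a chain of MHC class II, had 40.5 CPM against 5.96 CPM, and Nlrc5, the regulator of MHC class I genes, 48.5 CPM against 9.18 CPM. H2-Aa reached 2029 CPM in the EGFP- library. H2-K1 and B2m, which form MHC class I, had 648 CPM against 294 CPM and 2592 CPM against 1534 CPM. Of 18 complement and Fc receptor genes, C4b (75.6 against 5.02 CPM) and C3 (47.8 against 3.15 CPM) were called, both under 20 CPM in sham. C1qc had 1607 CPM against 1789 CPM, and the median of the list was 0.07. With no minimum level 2 of the 18 were at a log2 ratio of 2 or more.

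Of 23 genes of apoptotic cell uptake, Axl, Anxa5 (105 against 14.0 CPM), Cd300lf (20.4 against 2.23 CPM) and Mfge8 (60.1 against 10.9 CPM) were called higher. All 4 were under 20 CPM in sham, and the median was 0.00 over all 23. With no minimum level 7 of the 23 were at a log2 ratio of 2 or more, against 5.41% of genes with a count. Mertk, the receptor akin to Axl, had 671 CPM against 994 CPM. Mfge8, a bridge to phosphatidylserine that mural cells also make, had 7.67 to 19.9 CPM in the floxed libraries. The Axl level was 222, 238 and 235 CPM there. Of 25 innate sensor genes, Clec7a was called higher and Tlr5 lower, with a median of -0.23. With no minimum level 2 of the 25 were at a log2 ratio of 2 or more and 1 at -2 or less. Among genes with a count those shares were 5.41% and 0.0568%. Tlr7 had 684 CPM against 913 CPM and Tmem173, encoding STING, 178 CPM against 418 CPM, neither called.

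Among 29 microglial transcription factor genes, Bhlhe40 was called higher (83.8 against 6.20 CPM) and none lower, with a median of -0.22. With no minimum level 1 of the 29 was at a log2 ratio of 2 or more, against 5.41% of genes with a count. Sall1, which maintains microglial identity, had 791 CPM against 1523 CPM, and its log2 ratio was -0.94. Yy1, the factor deleted elsewhere in the study, had 87.2 CPM against 87.4 CPM, and Zfp384 100.2 CPM against 129 CPM. Of 24 glycolysis and hypoxia genes 1 was called higher, Slc2a1, the glucose transporter GLUT1 (481 against 67.3 CPM), with a median of 0.68. With no minimum level 1 of the 24 was at a log2 ratio of 2 or more, against the same 5.41%. Slc2a1 is also the main glucose transporter of brain endothelium, and its level in the floxed libraries was 156, 168 and 185 CPM. Hif1a had 612 CPM against 249 CPM, which was not called. None of the 23 cholesterol synthesis genes (median 0.22) and none of the 24 immediate early genes (0.31), which tissue dissociation is known to induce, were called. Of the 22 immediate early genes with 20 CPM, 4 were at a log2 ratio of 1 or more and 1 at -1 or less. Among all genes considered those shares were 10.6% and 2.9%. Fos had 1762 CPM on day 6 against 718 CPM in sham (1.29), and Jun 3460 CPM against 4762 CPM (-0.46).

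**Figure D3:**
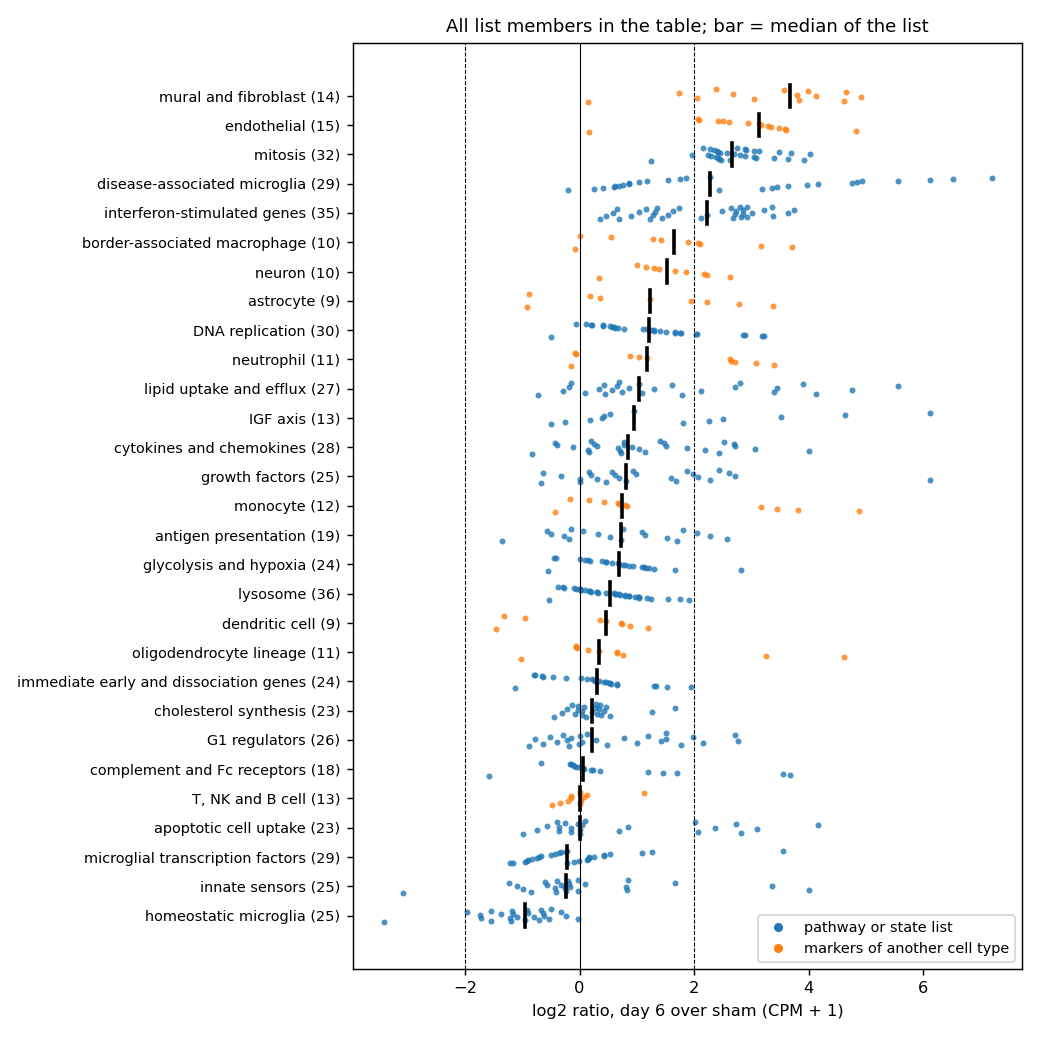
Each point is the log2 ratio of day 6 over sham of 1 gene, by list (number of members in the table in brackets), with all members shown and the median as a black bar. The bars run from -0.94 for homeostatic genes to 2.67 for mitotic genes among pathway lists in blue, and endothelial and mural markers in orange lie at 3.13 and 3.68.

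Markers of vascular cells were as far above sham as any microglial group. Of 15 endothelial markers, 14 were called higher, with a median of 3.13, against 6.25% of all genes considered. All 15 reached 20 CPM in either library, and 8 of the 14 were under it in sham. Vwf, the von Willebrand factor gene, had 1475 CPM on day 6 against 51.0 CPM in sham (28.9-fold, interval 27.8 to 30.1), and Pecam1, which encodes the CD31 of the stain, had 232 CPM against 54.5 CPM. Eng was the exception, at 223 CPM against 199 CPM. Of 14 mural and fibroblast markers, 9 were called higher, with a median of 3.68. Only these 9 reached 20 CPM in either library, and 7 of them were under it in sham. With no minimum level 12 of the 14 were at a log2 ratio of 2 or more, against 5.41% of genes with a count. Rgs5, a pericyte gene, had 345 CPM against 10.6 CPM (32.7-fold, interval 30.0 to 35.6), Myh11, of smooth muscle, 433 CPM against 30.3 CPM, and Col3a1, of fibroblasts, 41.2 CPM against 0.675 CPM.

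The endothelial markers summed to 3354 CPM in the wild-type day 6 library, 590.3 CPM in EGFP+ cells, 731 CPM in EGFP- cells, 789, 802 and 1131 CPM in the floxed libraries and 484 CPM in sham. The mural and fibroblast sum was 1446 CPM in the wild-type day 6 library, 176 CPM and 132 CPM in EGFP+ and EGFP- cells, 64.6, 95.2 and 143 CPM in the floxed libraries and 81.0 CPM in sham. Both sums were high again on day 14 (7568 and 1586 CPM) and low on day 28 (106 and 1.84 CPM). The wild-type day 6 library thus carried far more vascular transcript than the other day 6 libraries, and the floxed libraries overlapped sham in the mural sum.

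**Figure D4:**
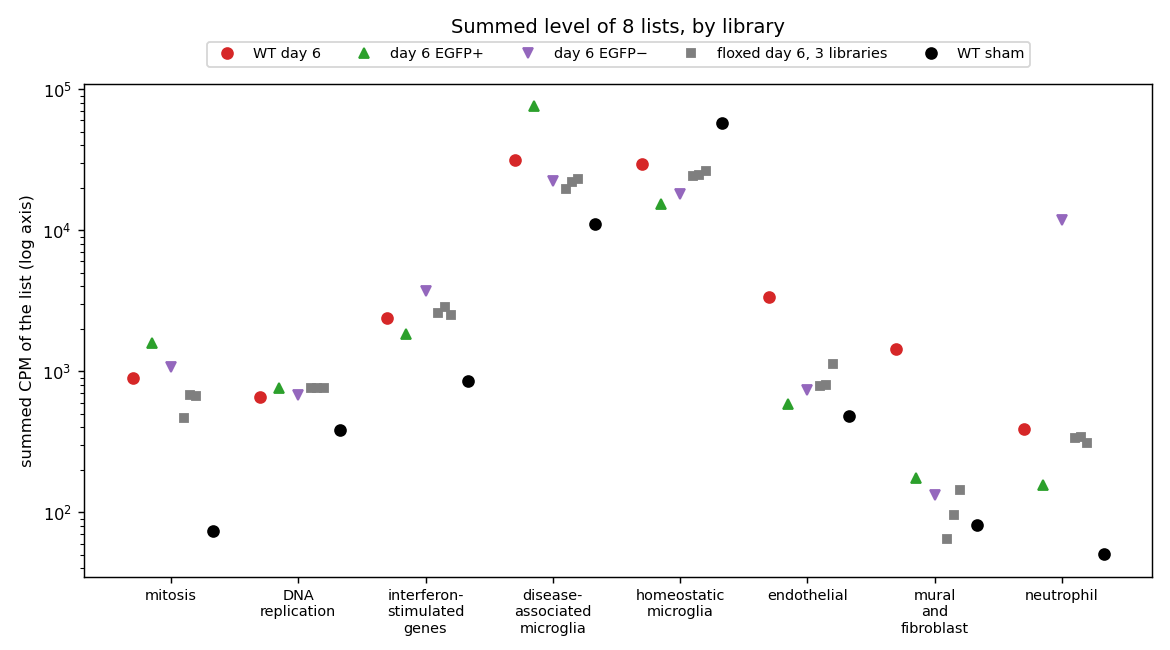
Summed CPM of 8 lists on a log axis, by library, with the wild-type day 6, EGFP+, EGFP-, 3 floxed day 6 and wild-type sham libraries from left to right in each list. Mitotic, interferon-stimulated and disease-associated sums stand above sham in every day 6 library, whereas the endothelial and mural sums of the wild-type day 6 library, 3354 and 1446 CPM, stand above all the others.

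Several of the 15 genes with the highest ratios are known from vessels or matrix. They include Lrg1, a modifier of vessel growth (75.0 CPM on day 6 against 0.900 CPM in sham), the prostaglandin transporter gene Slco2a1 (40.9 against 0.337 CPM), Ackr1, the venular chemokine receptor (54.6 against 0.862 CPM), Rgs5 and Vwf. In the floxed libraries Lrg1 had 11.6 to 33.9 CPM, Slco2a1 1.38 to 11.6 CPM and Ackr1 2.93 to 6.83 CPM. Ctla2a (150.4 against 1.76 CPM) and Fn1, encoding fibronectin (1361 against 45.2 CPM), were high in the floxed libraries as well, at 44.8 to 70.1 CPM and 734 to 1089 CPM. Notch3, a mural receptor gene, had 132 CPM in the wild-type day 6 library, 1.00 to 9.62 CPM in the floxed libraries and 5.15 CPM in sham, and the collagen gene Col4a1 had 229.7 CPM, 59.9 to 129 CPM and 16.2 CPM (both chosen after their values were seen). The part of vascular transcripts in the other results of the wild-type day 6 library was not tested.

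Cd5l, a macrophage lipid-binding protein gene, was among the 15 highest as well, with 47.2 CPM on day 6 against 0.469 CPM in sham. It had 87.9 CPM in EGFP+ cells but 2.09 CPM in EGFP- cells and 3.07 to 5.18 CPM in the floxed libraries. Its high level was thus found in 2 of the 6 day 6 libraries named here.

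Some markers of blood-derived cells were called higher. Of 11 neutrophil markers in the table, 4 were called higher (S100a8, S100a9, Ngp and Ltf), and the list summed to 391 CPM on day 6 against 50.5 CPM in sham. Only these 4 reached 20 CPM in either library, and 3 of them were under it in sham. With no minimum level 5 of the 11 were at a log2 ratio of 2 or more, against 5.41% of genes with a count. The median log2 ratio was 1.18 over all 11. S100a8 had 73.0 CPM against 7.80 CPM, while Mpo and Elane, which mark granulocyte precursors, were at 0 and 0.0894 CPM on day 6, and Cxcr2, a receptor of mature neutrophils, had 0.268 CPM against 0.412 CPM. The neutrophil sum was 156 CPM in EGFP+ cells, 11709 CPM in EGFP- cells and 337, 344 and 309 CPM in the floxed libraries. Of 12 monocyte markers, Fn1, Cd44 (48.6 against 2.55 CPM) and Chil3 (39.7 against 2.74 CPM) were called, the latter 2 under 20 CPM in sham. With no minimum level 4 of the 12 were at a log2 ratio of 2 or more, against 5.41% of genes with a count. The median was 0.74 over all 12, and Ccl9 had 70.6 CPM against 94.99 CPM. Fn1, given above beside vessel and matrix genes, held 1361 of the 1563 CPM of the list on day 6. The defining monocyte genes Ccr2 (14.2 against 7.55 CPM) and Ly6c2 (3.60 against 1.86 CPM) were not called. In EGFP- cells Ccr2 had 698 CPM and Ly6c2 154 CPM, far above the wild-type day 6 library.

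No dendritic, lymphocyte or neuronal marker and 1 border-associated macrophage marker reached 20 CPM, so the calls say nearly nothing of these cells. With no minimum level, 4 of the 10 border-associated macrophage markers and 3 of the 10 neuronal markers were at a log2 ratio of 2 or more. Of genes with a count in either library, 5.41% were. The border-associated macrophage list summed to 77.2 CPM on day 6 against 28.5 CPM in sham, and its median log2 ratio was 1.65. Mrc1 had 23.3 CPM on day 6 against 24.5 CPM in sham, whereas F13a1 had 18.8 CPM against 1.20 CPM, Ms4a7 12.1 CPM against 0, Pf4 3.19 CPM against 0 and Lyve1 2.70 CPM against 0. Dendritic markers summed to 21.5 CPM against 27.2 CPM, markers of T, NK and B cells to 2.21 CPM against 1.84 CPM, with Cd3e at 0 on day 6, and neuronal markers to 46.4 CPM against 6.69 CPM. Of 9 astrocyte markers Slc1a2 was called higher (26.8 against 1.69 CPM), and Gfap had 5.85 CPM against 0, while Slc1a3 had 82.4 CPM against 152 CPM and Aqp4 2.39 CPM against 5.44 CPM. The astrocyte list summed to 136 CPM against 163 CPM, sums in which Slc1a3 was the largest part. The median log2 ratio over all 9 astrocyte markers was 1.24, and 7 of the 9 were above 0. With no minimum level 3 of these 9 were at a log2 ratio of 2 or more. Of 11 oligodendrocyte lineage markers, 2 were called higher, among them Cspg4, which mural cells also express (84.7 against 2.51 CPM). Both were under 20 CPM in sham, and the median log2 ratio over all 11 was 0.35. Mbp, a myelin gene, had 45.4 CPM against 35.5 CPM, and Mog had 0.134 CPM against 0.187 CPM. Defining microglial markers were high in both libraries, with Csf1r at 4998 CPM on day 6 against 8649 CPM in sham and P2ry12 and Tmem119 as given above.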

How the data were processed

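Bulk RNA-seq libraries were made from total RNA (Ovation SoLo chemistry) and read on a HiSeq 2500, per the labels' protocols. STAR, featureCounts, edgeR, mm10 and GRCm38 are named, without roles or versions, in the submitters' processing notes. Strand use in counting is not given in the sources used here. The table of wild-type times and day 6 EGFP cells was deposited by the authors as whole read counts per gene, unnormalized. The deposited Yy1 table was taken to hold expected counts, since 3.55% to 4.75% of its values per library are not whole; how they arose is not given in the sources used here. The deposited day 14 EGFP table was not used, 0 columns were left unmapped, and 27 genes with date-like names were never named.

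Groups were taken from the sample titles. Counts were scaled by TMM in edgeR 4.0.16 (R 4.3.3) over the 7 libraries of the time course table, and the Yy1 table was scaled apart. The log2 ratio used a pseudocount of 1 CPM, which understates low genes. Library totals in the table used ran from 16.8 to 52.6 M. Low counts were even in 74.8% to 90.9% of cases in that table. If both mates of a fragment were counted, its intervals are too narrow. Members and the 29 lists were chosen with earlier results of these data known. Named were 15 fixed genes, the 15 highest and 15 lowest ratios past the size rule, up to 6 members past it and 2 not past it in each list, and cell type markers; others are said to be chosen after their values were seen. Gene positions are from GENCODE vM21. Exons of another annotated gene cover more than 20% of Ackr1, Cass4, Ccnd1, Ctla2a, Ctsd, Pltp, Tagln and Trp53cor1, and reads of Ifi204, H2-K1, Ifit1 and Ifit3 may be shared with close copies, so these values are uncertain. The size rule was tested on simulated data, with counting error alone and with changes only in genes above the minimum level in sham. Most genes called higher were under that level in sham, so the simulation does not cover them. Some genes of the lists are not reported here by name.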

Additional observations from a re-analysis of the deposited data

How the results depend on the processing

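Genes higher on day 6 numbered 443 and genes lower 6. Without a minimum level they were 952 and 10, at 5 CPM 895 were higher, and at 50 CPM 215. At a log2 ratio of 1 they were 751 and 206, and at a log2 ratio of 3 they were 249 and 2. With a pseudocount of 5 CPM 350 were higher and 3 lower. Over RLE, total count and TMM scaling of the 2 libraries, a pseudocount of 0.5 CPM and a minimum of 10 counts, the counts stayed within 1.5 times. No named log2 ratio that was called changed sign. The pseudocount of 5 CPM ended 15 named calls, among them Pecam1, Kdr, Igfbp3, Fgf1, Bank1, Cass4 and Trp53cor1. Total count scaling added Anln. The medians of the G1 list (-0.14 to 0.21), the border-associated macrophage list (-0.07 to 2.90) and the dendritic list (-1.14 to 0.46) changed sign between settings, the last with all members in place of those at 5 CPM, a setting chosen after seeing the data. The median of the genes considered moved by at most 0.052 under these scalings (total count scaling).

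No paired analysis was possible because each group held 1 library and the result comes from no test. For the same reason no library was left out. The spread between mice is unknown, and intervals cover counting error only.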
